A study of Mus musculus with 5 samples.

Results

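The 10 genes examined here are the Notch receptors Notch1, Notch2, Notch3 and Notch4, the ligands Jag1, Jag2, Dll1 and Dll4, and the target genes Hes1 and Hey1. They were picked by gene symbol, not by any measured value, out of 51912 genes listed in each library. All 10 had enough counts to be among the 18590 genes tested. Total RNA was sequenced from the dorsolateral prostate of male mice aged 3 months. The 2 Ghr deletion libraries came from Ghrflox/flox;ROSA26Cre-ERT2+/0 mice, in which a tamoxifen-activated Cre recombinase made from the ROSA26 locus can cut out a flanked part of the growth hormone receptor gene. The 3 control libraries came from Ghrflox/flox mice, which carry the same flanked alleles and no Cre. Every mouse was given tamoxifen at 250 mg/kg on each of 5 days, and the tissue was collected 1 month after the last dose. Because only the deletion mice carry Cre, an effect of Cre itself and an effect of receptor loss cannot be told apart.

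Notch signalling passes between touching cells. A ligand of the Jagged or Delta-like family on one cell pulls on a Notch receptor on its neighbour, proteases of the ADAM family and then the gamma-secretase complex cut the receptor, and the freed inner part enters the nucleus and joins the DNA-binding protein RBPJ to switch on genes such as Hes1 and Hey1, which encode transcriptional repressors. In the prostate the pathway is known for its part in basal and luminal epithelial cell fate and in signalling between stroma and epithelium, and in blood vessels Notch4 and Dll4 mark endothelium while Notch3 marks pericytes and vascular smooth muscle.

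The libraries were uneven in ways the labels do not give. Ghr itself, counted over the whole gene, was at 21.5 and 10.2 CPM (counts-per-million, on the library size scaled by TMM, as for all CPM below) in the Ghr deletion libraries, against 10.1, 11.8 and 13.2 CPM in the controls (edgeR log2 fold change 0.44, SE 0.35, adjusted p = 0.874), so the counts do not show the deletion, and Ghr deletion below names the libraries by their labels. Pbsn, a prostate secretory gene, was at 0.0454 and 8.76 CPM in the Ghr deletion libraries and at 11.1, 475 and 0.816 CPM in the controls, so this defining marker was nearly absent from 2 of the 5 libraries. Msmb, another, was at 0 and 0.429 CPM in the Ghr deletion libraries and at 11.1, 112 and 0.0441 CPM in the controls. Both belong to a list of 8 distal luminal markers, of which 6 had a log2 fold change below 0 and 2 above. The luminal keratins on that list were abundant in every library. Krt8 was at 165 and 109 CPM in the Ghr deletion libraries and at 190, 144 and 143 CPM in the controls. Krt18 was at 291 and 263 CPM in the Ghr deletion libraries and at 236, 224 and 291 CPM in the controls. The 8 genes of the seminal vesicle list summed to 104999 and 183272 CPM in the Ghr deletion libraries and to 451761, 234412 and 234784 CPM in the controls. Of these genes 6 of 8 were lower in both Ghr deletion libraries than in each control, against 12.5% of all tested genes. The median log2 fold change over the 8 was -7.48. Svs1, for example, was at 0.0454 and 7.9 CPM in the Ghr deletion libraries and at 32900, 22500 and 58.6 CPM in the controls. The 2 genes with a log2 fold change above 0, Svs2 (0.12) and Pate4 (0.25), were abundant in every library. Svs2 was at 67700 and 119000 CPM in the Ghr deletion libraries and at 68600, 47300 and 141000 CPM in the controls. Pate4 was at 20900 and 30500 CPM in the Ghr deletion libraries and at 21100, 10500 and 33100 CPM in the controls. Control replicate 2 correlated least with the others, with Spearman's rho of log2 CPM across genes from 0.901 to 0.937. Control replicate 3 correlated more closely with the Ghr deletion libraries (0.978 and 0.981) than with control replicates 1 and 2 (0.95 and 0.915), and for Svs1, Pbsn and Msmb its level was nearer to theirs. Control replicate 2 also had the highest relative levels of GC-rich genes, given after the values of the Notch genes. Replicate numbers below follow the labels, and values are given in the order of replicates 1 and 2 for Ghr deletion and 1 to 3 for control.

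None of the 10 genes passed the test. At an adjusted p under 0.05 in edgeR's quasi-likelihood fit, 0 were higher and 0 were lower in the Ghr deletion libraries, against a background of 0% of all tested genes in each direction. DESeq2 and limma-voom also called 0 of the 10, where DESeq2 called 0.108% of its tested genes higher and 0.329% lower. An unadjusted p under 0.05 was reached by 1 of the 10, Notch4, which was lower, against 4.26% of all tested genes in either direction and 3.1% that were lower. With the replicate number as a block, which the labels do not call a pairing, 1 of the 10 (Jag2) was called lower and 0 higher, where 3.09% of all tested genes were called lower and 2.97% higher. With GC offsets as well (described below) 0 of the 10 were called, against 2.06% lower and 2.29% higher. Without control replicate 3, 0 of the 10 were called, against 0.18% lower and 0.082% higher. The log2 fold change of Ghr deletion over control was below 0 for 8 of the 10 genes, with a median of -0.41, against 50.6% of all tested genes below 0 and a median of -0.006. Both Ghr deletion libraries lay below all 3 controls for 4 of the 10 genes, Notch2, Notch4, Jag2 and Dll1, against 12.5% of all tested genes, and above all 3 for 0 of the 10, against 10.8%. Notch4, Jag2 and Dll1 belong to the quintile of tested genes with the highest GC content, where this share was 33%, and Notch2 to the next, where it was 15.5%.

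**Figure D1:**
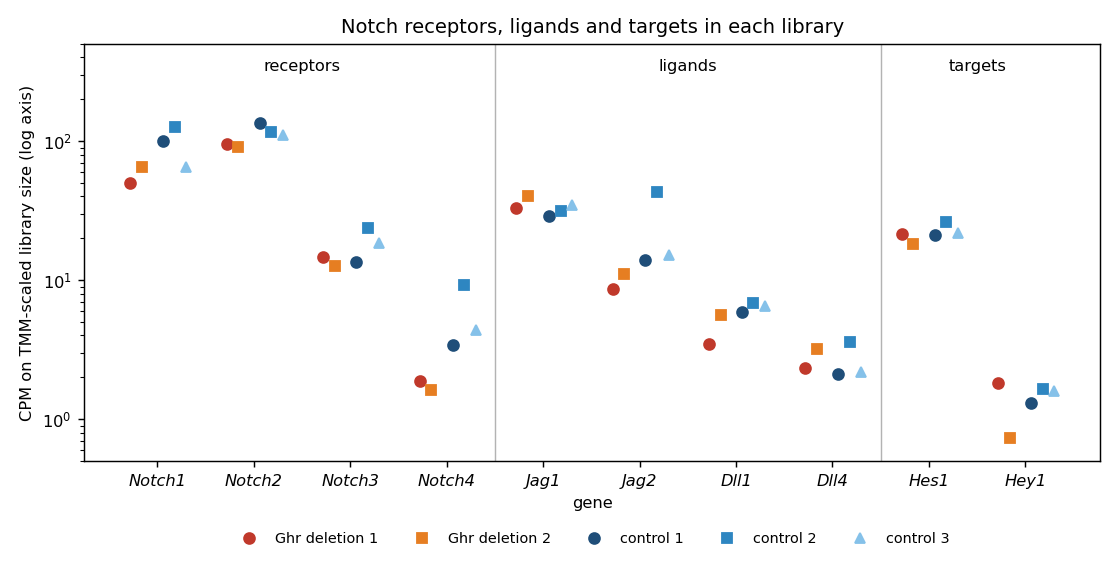
CPM on the TMM-scaled library size (log axis) of the 10 Notch genes, 1 point per library, with Ghr deletion libraries left of controls for each gene. Notch4 lies below all controls in both Ghr deletion libraries, at 1.88 and 1.62 CPM, and Jag2 stands out in control replicate 2 at 43.1 CPM.

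The promoters of 3 receptors are shown because Notch2 and Notch4 were the receptors whose groups did not overlap, and because Notch3 has more than 1 copy, all before the start, of the N box, a sequence that HES repressors are known to bind. Notch1, not printed, has 3 copies, with their first bases at positions -108, -3 and -1, and those at -3 and -1 run past the start. The sequences are from RefSeq on GRCm38.p6 and run 5′ to 3′ on the strand of the gene. They cover the bases before the RefSeq start that no GENCODE M21 exon covers. Capitals mark the N box, searched as CACNAG on both strands. The Notch2 promoter is chr3:98013288-98013526 (plus strand), that of Notch4 is chr17:34564045-34564267 (plus strand), and that of Notch3 is chr17:32166891-32167140 (minus strand).
Notch2: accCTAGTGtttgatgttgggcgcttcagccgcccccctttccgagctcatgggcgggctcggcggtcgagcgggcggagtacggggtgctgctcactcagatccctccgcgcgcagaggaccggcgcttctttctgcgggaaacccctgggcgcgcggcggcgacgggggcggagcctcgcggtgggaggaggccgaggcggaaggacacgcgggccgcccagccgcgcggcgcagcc
Notch4: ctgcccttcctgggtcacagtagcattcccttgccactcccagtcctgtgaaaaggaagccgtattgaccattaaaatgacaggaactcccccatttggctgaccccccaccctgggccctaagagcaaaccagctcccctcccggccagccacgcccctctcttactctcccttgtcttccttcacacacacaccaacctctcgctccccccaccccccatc
Notch3: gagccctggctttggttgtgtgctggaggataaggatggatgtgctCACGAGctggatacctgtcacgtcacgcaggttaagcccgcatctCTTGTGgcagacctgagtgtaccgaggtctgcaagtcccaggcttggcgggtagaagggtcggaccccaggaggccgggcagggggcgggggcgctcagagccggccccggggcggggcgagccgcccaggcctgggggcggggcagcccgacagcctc
GC content was 74.1% in the Notch2 stretch, 59.2% in the Notch4 stretch and 68.8% in the Notch3 stretch. Of the 10 genes, 8 are in the RefSeq promoter table, and Hes1 and Hey1 are not matched there. These 8 genes have 9 windows, each from 250 bases before to 50 after the start. The N box was found in 5 of these 9 windows (for Notch1, Notch2, Notch3, Dll1 and Dll4), against 42.5% of all 32851 promoter windows. In Notch3 the copies were at position -204 from the start on the strand of the gene and at position -159 on the opposite strand. The core of the RBPJ site, searched as TGGGAA on both strands, was found in 0 of the 9 windows, against 25.6% of all windows. This says only that these letters are not in these windows.

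Among the receptors, Notch2 and Notch1 were the most abundant and Notch4 the least. Levels between genes are compared in TPM (transcripts-per-million, which divides by effective length), where Notch2 was at 10.5 and 8.02 TPM in the Ghr deletion libraries and at 5.84, 2.63 and 6.86 TPM in the controls. Notch1 was at 8.04 and 7.69 TPM in the Ghr deletion libraries and at 5.04, 3.49 and 5.15 TPM in the controls. Notch2 exceeded Notch1 in 4 of 5 libraries, control replicate 2 being the exception. TPM of most genes was higher in the Ghr deletion libraries, with a median log2 difference over all tested genes of 0.87 on log2(TPM + 1). A TPM difference between the groups is therefore to be read against that shift, and the tests below use scaled counts.

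Notch1 (ENSMUSG00000026923, GRCm38 chromosome 2, 26457903 to 26516663), the receptor best known in prostate epithelium, was at 50.4 and 64.8 CPM in the Ghr deletion libraries, against 100, 127 and 64.7 CPM in the controls. Control replicate 3 lay between the Ghr deletion libraries, so the groups overlapped. The log2 fold change was -0.76 (SE 0.33, 95% confidence interval -1.57 to 0.06, edgeR adjusted p = 0.874). Against control replicate 3 alone, without control replicates 1 and 2, the log2 fold change was -0.17.

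Notch2 (ENSMUSG00000027878, chromosome 3, 98013527 to 98150361), a close relative of Notch1, was at 94.7 and 91.3 CPM in the Ghr deletion libraries and at 136, 117 and 110 CPM in the controls. Both Ghr deletion libraries were below each control, by a margin smaller than the range of the controls. Its log2 fold change was -0.38 (SE 0.20, 95% confidence interval -0.86 to 0.10, edgeR adjusted p = 0.874). GENCODE places 2 further genes, Gm42819 and Gm42820, on the same strand inside Notch2, and these held at most 162 counts in any library, against 2200 to 4990 for Notch2.

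Notch3 (ENSMUSG00000038146, chromosome 17, 32120820 to 32166852), the receptor of pericytes and vascular smooth muscle, was at 14.7 and 12.6 CPM in the Ghr deletion libraries and at 13.5, 23.6 and 18.5 CPM in the controls. Control replicate 1 lay between the Ghr deletion libraries. Its log2 fold change was -0.44 (SE 0.28, edgeR adjusted p = 0.874). The 5 pericyte markers (Rgs5, Pdgfrb, Cspg4, Kcnj8 and Abcc9) summed to 243 and 140 CPM in the Ghr deletion libraries and to 139 and 104 CPM in control replicates 1 and 2, with control replicate 3 between the Ghr deletion libraries. Of their log2 fold changes 3 of 5 were above 0, and none of the 5 was at 0 counts in any library. In whole tissue, fewer cells of a type and less RNA per cell cannot be told apart.

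Notch4 (ENSMUSG00000015468, chromosome 17, 34564268 to 34588503), the receptor of endothelium, had the largest difference of the 10 genes. It was counted 83 and 64 times in the Ghr deletion libraries and 55 to 200 times in the controls. On the CPM scale it was at 1.88 and 1.62 in the Ghr deletion libraries, against 3.39, 9.30 and 4.41 in the controls. The groups did not overlap, and the controls spread more widely than the gap between the groups. The log2 fold change was -1.70 (SE 0.52, 95% confidence interval -2.99 to -0.41), which is 0.308-fold, with an unadjusted p of 0.0181 and an adjusted p of 0.874 by edgeR. Without control replicate 2 it was -1.16.

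Most endothelial markers did not share this pattern. The 10 genes of the endothelial list, among them Pecam1, Cdh5 and Kdr, summed to 202 and 142 CPM in the Ghr deletion libraries and to 166, 126 and 157 CPM in the controls. Of their log2 fold changes 9 were above 0 and 1 was below, with a median of 0.19, and none was at 0 counts in any library. The exception, Egfl7, was at 9.19 and 12.2 CPM in the Ghr deletion libraries and at 14.8, 17.7 and 12.8 CPM in the controls, without overlap. With GC offsets its log2 fold change was -0.12 and the groups overlapped. Emcn was higher without overlap, at 14.1 and 10.3 CPM in the Ghr deletion libraries and 9.07, 3.7 and 9.09 CPM in the controls. Of all tested genes, 12.5% were lower and 10.8% higher without overlap. Notch4 came to 0.930% and 1.14% of the summed CPM of the endothelial list in the Ghr deletion libraries, against 2.05%, 7.38% and 2.82% in the controls. Both Ghr deletion libraries were thus below each control also in proportion to the endothelial sum. These proportions were taken without GC offsets, and endothelial content as a cause was not tested.

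Effective lengths of Notch4 also differed between libraries. The files list 12 transcripts for Notch4, of which the longest in GENCODE M21 has 6591 bases and several are annotated as retained introns. The effective length of the gene, weighted over these transcripts, was 2891 and 2115 bases in the Ghr deletion libraries and 6367, 3374 and 2530 bases in the controls. Per length, Notch4 was at 0.73 and 0.64 TPM in the Ghr deletion libraries and at 0.21, 0.5 and 1.01 TPM in the controls, so that in TPM both Ghr deletion libraries lay inside the range of the controls. With effective lengths as offsets in the count test, the log2 fold change was -1.23. By contrast the effective length of Notch3, which has 1 transcript, ran only from 7819 to 7855 bases.

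As a share of the summed TPM of the 4 receptors, Notch2 held 47.2 ± 2.62% in the Ghr deletion libraries and 44.6 ± 6.95% in the controls (SD, n = 2 and 3). Notch1 held 40.6 ± 4.11% in the Ghr deletion libraries and 42.4 ± 6.46% in the controls. Notch3 held 8.73 ± 1.63% in the Ghr deletion libraries and 7.70 ± 1.86% in the controls, and Notch4 held 3.52 ± 0.140% in the Ghr deletion libraries and 5.26 ± 3.01% in the controls. For each receptor the difference in mean share was smaller than the SD among controls.

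Among the ligands, Jag1 and Dll4 took a larger share of ligand TPM and Jag2 a smaller share in both Ghr deletion libraries than in any control. Jag1 (ENSMUSG00000027276, chromosome 2, 137081456 to 137116644), a Jagged ligand known in basal and stromal cells, was at 33.3 and 40 CPM in the Ghr deletion libraries and at 28.8, 31.3 and 34.5 CPM in the controls. The highest control lay between the Ghr deletion libraries. Its log2 fold change was 0.22 (SE 0.19, 95% confidence interval -0.26 to 0.69, edgeR adjusted p = 0.874). Jag1 had the lowest GC content of the 10 genes, at 48.8%.

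Jag2 (ENSMUSG00000002799, chromosome 12, 112907819 to 112929776), the second Jagged ligand, was at 8.67 and 11.1 CPM in the Ghr deletion libraries and at 14.0, 43.1 and 15.2 CPM in the controls. Both Ghr deletion libraries were below each control, and control replicate 2 was far above the rest. In log2 terms the fold change was -1.29 (SE 0.56, 95% confidence interval -2.67 to 0.09, edgeR adjusted p = 0.874). Without control replicate 2 it was -0.57.

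Per length, Jag1 exceeded Jag2 in 4 of 5 libraries, and control replicate 2 was again the exception. Jag1 was at 7.66 and 7.06 TPM in the Ghr deletion libraries and at 2.51, 1.37 and 4.31 TPM in the controls, while Jag2 was at 4.06 and 3.08 TPM in the Ghr deletion libraries and at 2.08, 2.59 and 3.5 TPM in the controls. Of the summed TPM of the 4 ligands, Jag1 held 54.4% in each of the Ghr deletion libraries and 42.5%, 29.0% and 43.8% in the controls. Jag2 held 28.8% and 23.7% in the Ghr deletion libraries and 35.2%, 54.8% and 35.6% in the controls. Dll4 held 5.33% and 6.71% in the Ghr deletion libraries and 4.06%, 5.07% and 4.07% in the controls. The shares of Jag1, Jag2 and Dll4 did not overlap between the groups, while those of Dll1 did. They were taken without GC offsets, and no background of such shares over other genes was computed. The 4 shares are parts of 1 whole, so a lower share of Jag2 by itself raises the other shares. In CPM, with or without GC offsets, the groups overlapped for Jag1 and Dll4, and not for Jag2. No test was made of the shares, since 0.2 is the smallest two-sided p that an exact permutation of 2 and 3 libraries allows. Beside this stands the GC content of the transcripts, 48.8% for Jag1 and 61.0% for Jag2, with 56.0% for Dll4.

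**Figure D2:**
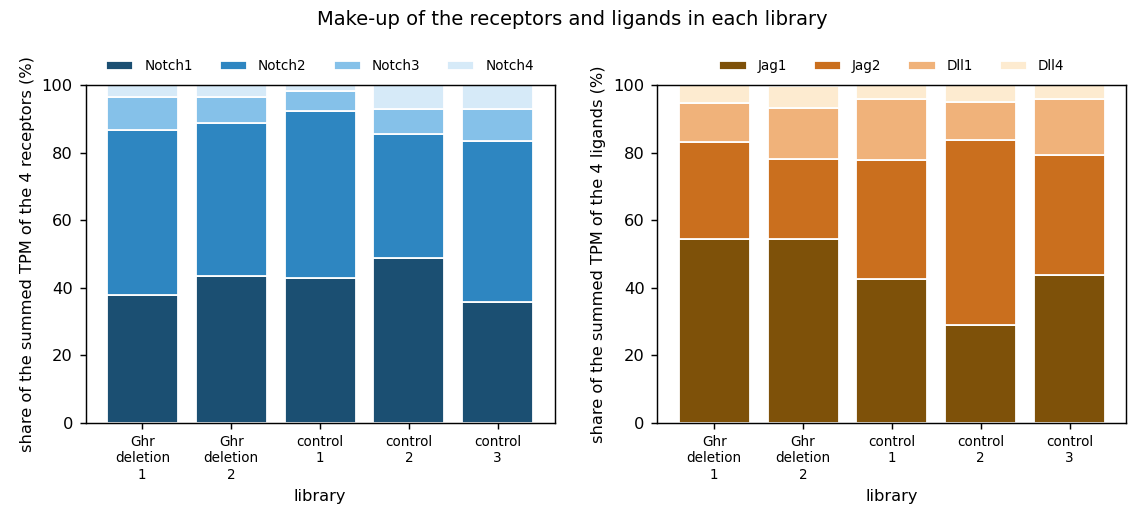
Share of the summed TPM of the 4 Notch receptors (left) and the 4 ligands (right) in each library, stacked to 100%, with Ghr deletion libraries at the left of each panel. Jag1 takes 54.4% of ligand TPM in each Ghr deletion library and 29.0% to 43.8% in the controls, while Notch1 and Notch2 together hold most of the receptor TPM in every library.

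The Delta-like ligands were less abundant. Dll1 (ENSMUSG00000014773, chromosome 17, 15367354 to 15376872) was at 3.49 and 5.63 CPM in the Ghr deletion libraries and at 5.93, 6.83 and 6.51 CPM in the controls. Ghr deletion replicate 2 was just below the lowest control. Its log2 fold change was -0.49 (SE 0.31, edgeR adjusted p = 0.874). With Ghr deletion replicate 1 left out it was -0.19, and with replicate 2 of that group left out it was -0.88. Dll4 (ENSMUSG00000027314, chromosome 2, 119325784 to 119335962), the Delta-like ligand of endothelial tip cells, was at 2.34 and 3.20 CPM in the Ghr deletion libraries and at 2.10, 3.60 and 2.18 CPM in the controls. The Ghr deletion libraries lay inside the range of the controls, with a log2 fold change of 0.08 (SE 0.40, 95% confidence interval -0.91 to 1.06, edgeR adjusted p = 0.967) that turned negative under 7 alternatives. Dll4 was counted 34 to 127 times per library.

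The targets did not separate the groups. Hes1 (ENSMUSG00000022528, chromosome 16, 30064384 to 30067796), the repressor most widely used as a readout of Notch signalling, was at 21.4 and 18.2 CPM in the Ghr deletion libraries and at 21.0, 26.1 and 21.9 CPM in the controls. Ghr deletion replicate 1 lay among the controls. The log2 fold change was -0.22 (SE 0.20, 95% confidence interval -0.72 to 0.28, edgeR adjusted p = 0.874), an interval that reaches neither a halving nor a doubling. Hes1 was also the most abundant of the 10 genes per length in every library, at 20.3 and 12.4 TPM in the Ghr deletion libraries and at 7.19, 3.93 and 10.4 TPM in the controls.

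Hey1 (ENSMUSG00000040289, chromosome 3, 8663359 to 8667256), a repressor known in vessels and embryonic patterning, was at 1.82 and 0.732 CPM in the Ghr deletion libraries and at 1.3, 1.64 and 1.59 CPM in the controls. The Ghr deletion libraries were the highest and the lowest of the 5. Its log2 fold change was -0.25 (SE 0.51, 95% confidence interval -1.50 to 1.01, edgeR adjusted p = 0.927). With Ghr deletion replicate 1 left out it was -1.05, and with replicate 2 of that group left out it was 0.27. Only 21 to 80 counts per library stand behind these values.

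Ordered by median TPM over the 5 libraries, the 10 genes ran Hes1, Notch2, Notch1, Jag1, Jag2, Dll1, Notch3, Notch4, Dll4 and Hey1. Hes1 was above Notch2, Notch1 above Jag1, Jag2 above Dll1 and Notch3 above Notch4 in 5 of 5 libraries. Neighbours that changed places between libraries were Notch2 and Notch1 (Notch2 above in 4 of 5), Jag1 and Jag2 (Jag1 above in 4 of 5), Dll1 and Notch3 (Dll1 above in 3 of 5), Notch4 and Dll4 (Notch4 above in 2 of 5) and Dll4 and Hey1 (Dll4 above in 2 of 5). The genes closest to Hes1 in profile over the 5 libraries, by the mean absolute difference of centred log2 CPM among 12086 genes, were Ppp1r10 (0.022), Gab1 (0.032) and Itsn1 (0.033), and those closest to Hey1 were Adap2 (0.099), Syne3 (0.110) and Incenp (0.127). These are descriptions over 5 libraries only.

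GC content moved with the fold changes of these genes. Over all 18538 tested genes with a GC value, the median log2 fold change was 0.17 in the quintile with the lowest transcript GC content and -0.40 in that with the highest (55% to 70.5% GC), with Pearson's r of -0.24 across genes. Of the 10 Notch genes, 7 belonged to the highest quintile, 2 to the next and 1, Jag1, to the middle one. Notch4 and Jag2, with 61.5% and 61.0% GC, were at percentiles 98.8 and 98.5 of all tested genes. In the highest quintile the median of log2 CPM minus each gene's mean was -0.27 and -0.16 in the Ghr deletion libraries and -0.05, 0.43 and 0.05 in the controls, so control replicate 2 stood highest and both Ghr deletion libraries lowest.

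**Figure D3:**
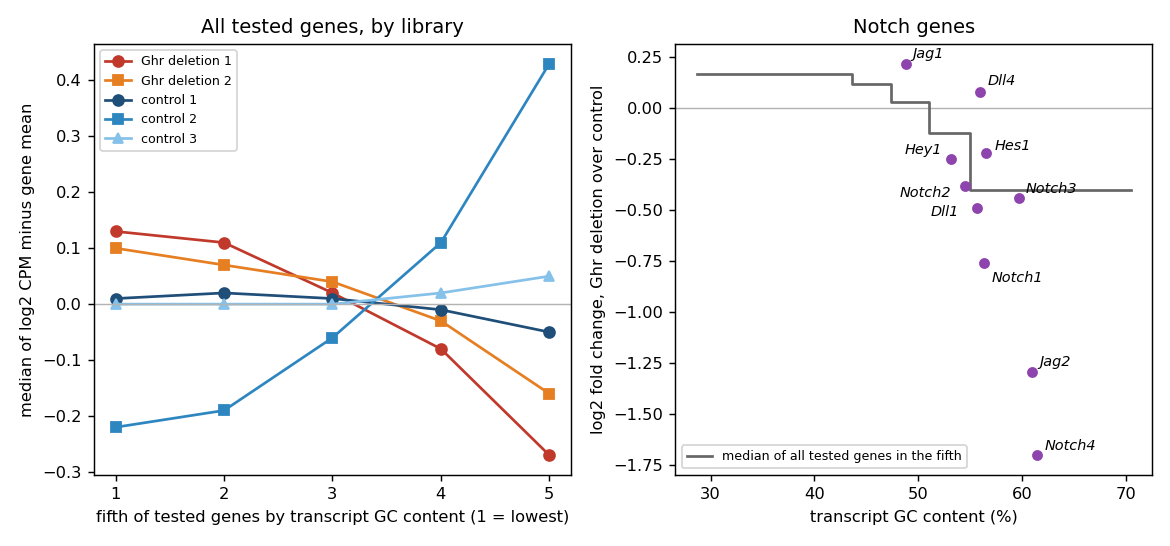
Left, the median over tested genes of log2 CPM minus the gene mean in each quintile of transcript GC content, 1 line per library. Right, log2 fold change (Ghr deletion over control) against transcript GC content for the 10 Notch genes, with the median of all tested genes in each quintile as a step line. Control replicate 2 reaches 0.43 and Ghr deletion replicate 1 reaches -0.27 in the highest quintile, and Notch4 and Jag2 lie below the step line at -1.70 and -1.29.

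When the dependence on GC content was taken out of each library as an offset, an alternative chosen after seeing the data, the median log2 fold change of the 10 genes was -0.16 in place of -0.41, and 6 of 10 were below 0. That of Notch4 was -0.96 (SE 0.33, 95% confidence interval -1.79 to -0.14, unadjusted p = 0.0286 and adjusted p = 0.976 by edgeR), and that of Jag2 was -0.56 (SE 0.31). Notch1 was at -0.44 and Notch2 at -0.20, while Notch3 and Hes1, below 0 without the offsets, were both at 0.10. On these offset values the groups did not overlap for 2 of the 10 genes, Notch4 and Jag2, both lower, against 8.86% of all tested genes that were lower without overlap and 9.35% that were higher. Notch4 was again the 1 gene at an unadjusted p under 0.05, where 1.88% of all tested genes were lower at that level. Offset CPM of Notch4 was 2.61 and 1.95 in the Ghr deletion libraries and 3.64, 5.49 and 4.18 in the controls. Offset CPM of Jag2 was 11.8 and 13.2 in the Ghr deletion libraries and 15.0, 26.1 and 14.5 in the controls.

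**Figure D4:**
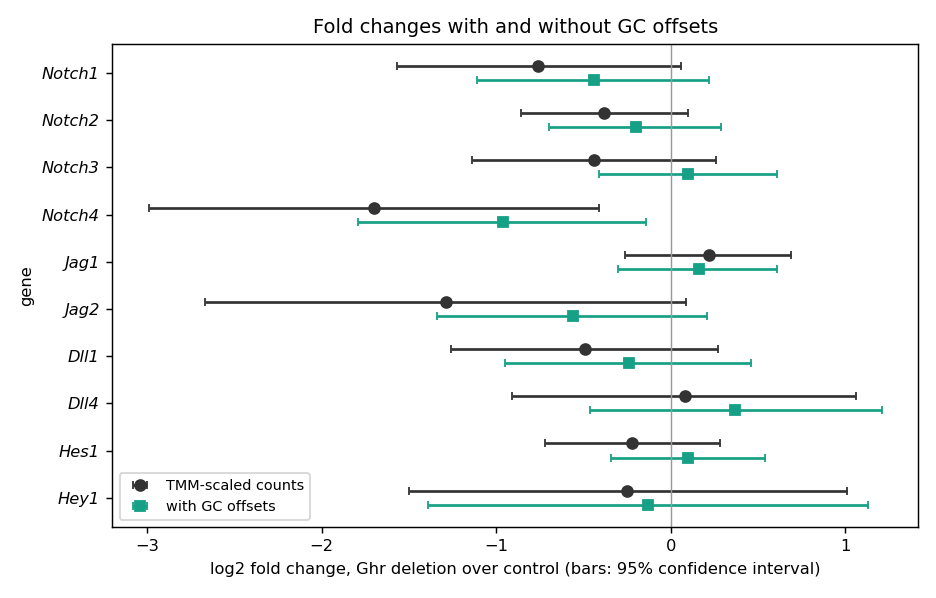
Log2 fold change (Ghr deletion over control) of the 10 Notch genes with 95% confidence intervals, from TMM-scaled counts (circles) and with GC offsets (squares). Notch4 is the gene whose intervals, -2.99 to -0.41 and -1.79 to -0.14, exclude 0 in both fits, before any adjustment for the number of genes tested.

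The rest of the pathway was read from the same fit, over 50 further genes grouped by role, of which 43 had enough counts to be tested. In the edgeR fit none of these was called (0 in either direction), DESeq2 and limma-voom also called 0, and Dner and Furin had an unadjusted p under 0.05. With the replicate number as a block, Dner was called lower and Neurl1b, a ligand-directed ubiquitin ligase, higher, 1 of 43 in each direction against 3.09% of all tested genes lower and 2.97% higher. Neurl1b was at 20.7 and 20.3 CPM in the Ghr deletion libraries and at 4.69, 5.03 and 22.6 CPM in the controls, so the groups overlapped through control replicate 3, which the block leaves out. With GC offsets its CPM was 26.8 and 23.5 in the Ghr deletion libraries and 4.93, 3.34 and 21.7 in the controls, without overlap. Below 0 were 26 and above 0 were 17, with a median log2 fold change of -0.11. Both Ghr deletion libraries were below each control for 7 of the 43 and above each control for 1, Itch, against the same 12.5% and 10.8% of all tested genes. With GC offsets these counts were 1 and 3, against 8.86% and 9.35% of all tested genes, and the median was -0.03.

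Other ligands had the lowest values. Dner, a Delta-like protein of the nervous system that can bind Notch, was at 7.17 and 6.66 CPM in the Ghr deletion libraries and at 34.3, 15.5 and 11.0 CPM in the controls. The groups did not overlap, and control replicate 1 was the highest. Its log2 fold change was -1.55 (SE 0.52, edgeR adjusted p = 0.874) and -1.49 with GC offsets, but -0.94 without control replicate 1 and -0.67 against control replicate 3 alone. Dlk2, a Delta-like protein that lacks the receptor-activating domain, had a log2 fold change of -1.24 (SE 0.66), against -0.58 with GC offsets, -0.69 without control replicate 2, -0.72 with Ghr deletion replicate 1 left out and -2.06 with the other library of that group left out. Dll3 and Dlk1 were below the filter, with 0 to 1 and 0 to 5 counts per library.

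Of 8 further target genes 4 were tested. Nrarp, a target that feeds back on the pathway, was at 0.703 and 0.454 CPM in the Ghr deletion libraries and at 1.11, 2.26 and 0.287 CPM in the controls, with a log2 fold change of -1.05 (SE 0.89), or -0.18 without control replicate 2. Heyl, a target known in mural cells, was at 6.24 and 5.63 CPM in the Ghr deletion libraries and at 3.83, 4.26 and 7.39 CPM in the controls, with 0.19 (SE 0.37). For both genes the groups overlapped. Hes2, Hes3, Hes5 and Hes7 had at most 4 counts in any library.

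All 10 proteases and gamma-secretase subunits on the list were tested, with 5 above and 5 below 0. Furin, which cuts the receptor during its transport to the surface, was at 30.6 and 25.5 CPM in the Ghr deletion libraries and at 48.9, 72.5 and 36.5 CPM in the controls (log2 fold change -0.91, SE 0.33, edgeR adjusted p = 0.874). Psen2, a catalytic subunit of gamma-secretase, was at 16.3 and 16.9 CPM in the Ghr deletion libraries and at 27.5, 38.5 and 18.3 CPM in the controls (-0.75, SE 0.34, the same adjusted p). Both were lower in each Ghr deletion library than in each control, and with GC offsets the groups overlapped for both. Without control replicate 2 the log2 fold change was -0.60 for Furin and -0.46 for Psen2.

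Of the nuclear partners 8 of 9 were tested, 4 on each side of 0. Snw1, a coregulator, had 0.28 (SE 0.24). Of 5 glycosyltransferases, which tune how a receptor responds to each ligand, 4 were below 0, with Rfng at -0.94 (SE 0.47) and Lfng at -0.65 (SE 0.37). Of 14 ubiquitin ligases and endocytic regulators 8 were below 0, with Mib2, a ligase that acts on ligands, at -1.13 (SE 0.47) and Dtx3 at -0.76 (SE 0.45). Without control replicate 2 the log2 fold changes were -0.45 for Rfng, -0.45 for Lfng, -0.63 for Mib2, -0.23 for Dtx3 and 0.11 for Snw1. With GC offsets Mib2 was at -0.51 and Rfng at -0.37.

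**Figure D5:**
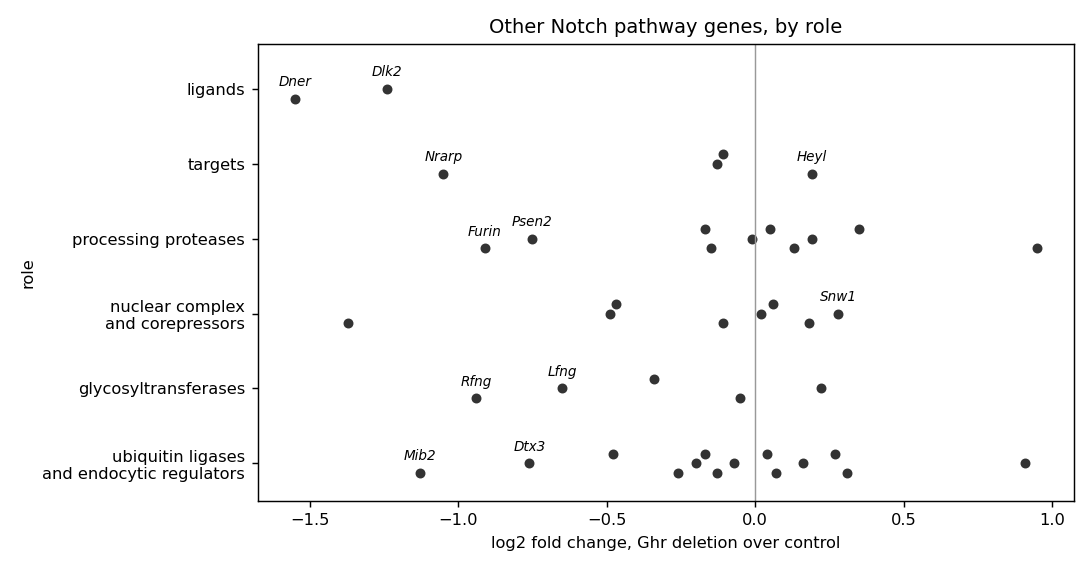
Log2 fold change (Ghr deletion over control) of the 43 tested genes of the wider Notch pathway, 1 point per gene, in rows by role. Names mark the genes described in the text by their p within a role, from Dner at -1.55 to Snw1 at 0.28.

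Summed levels of other cell types' markers also differed between libraries, and their part in the Notch results was not tested. The 5 basal epithelial markers (Krt5, Krt14, Krt15, Krt17 and Trp63) summed to 99.5 and 84.3 CPM in the Ghr deletion libraries and to 104, 104 and 102 CPM in the controls, with 4 of 5 log2 fold changes below 0 and none at 0 counts. Their median log2 fold change was -0.44, and -0.19 with GC offsets. Notch1 relative to the basal sum was 50.7% and 76.9% in the Ghr deletion libraries and 96.4%, 123% and 63.5% in the controls, so the groups overlapped. The 4 nerve and Schwann cell markers summed to 9.14 and 12.3 CPM in the Ghr deletion libraries and to 5.68, 51.3 and 8.84 CPM in the controls. The 5 adipocyte markers summed to 8.53 and 2.88 CPM in the Ghr deletion libraries and to 0.432, 1.03 and 1.13 CPM in the controls. In both Ghr deletion libraries 5 of 5 were higher than in each control, against 10.8% of all tested genes. Their median log2 fold change was 3.23. Counts were low, with Adipoq, Plin1, Cidec and Lep at 0 in at least 1 library. Lep had 12 and 22 counts in the Ghr deletion libraries and 0 in each control. Cfd alone gave 4.97 CPM of the sum in Ghr deletion replicate 1. The proximal luminal markers summed to 6342 and 1936 CPM in the Ghr deletion libraries and to 350, 236 and 2428 CPM in the controls, with 3 of the 6 tested higher and 1 lower without overlap.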

How the data were processed

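Per the labels' protocols, RNA was extracted from frozen tissue and prepared with a TruSeq Stranded kit for total RNA. GRCm38, RSEM 1.3.0, STAR 2.5.3a and bcl2fastq 2.20.422 are named in the submitters' processing notes, while the sources used here give neither the annotation release nor the strand setting. For each library the authors deposited a gene table. Per the file headers it holds expected counts, in which reads that match several genes are shared out, TPM, and the effective length of each gene in bases, another value the authors deposited. Without a stated strand setting, reads of genes that overlap on opposite strands, as for Notch1, Notch3, Notch4, Dll1 and Dll4, may not be told apart; those antisense genes held at most 100 counts in any library.

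Groups came from the sample titles. The labels do not say that replicates are separate animals, so p-values measure the spread between these samples, which may be technical. Expected counts were rounded, filtered with filterByExpr, scaled by TMM and tested in R 4.3.3 with edgeR 4.0.16 (quasi-likelihood), adjusting over all tested genes by Benjamini-Hochberg at 0.05. Standard errors came from the fold change and its F statistic. Totals ran from 19517831 to 41553558 expected counts per library. GC content is that of GENCODE M21 transcripts, weighted by length, and was matched for 99.7% of tested genes and for all 10 Notch genes. GC offsets are a loess fit per library with a span of 0.5. Symbols matched 99.5% of gene identifiers. Alternatives used DESeq2 1.42.0 and limma 3.58.1.

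The 10 genes, the wider list, the markers and the tests were chosen with earlier results of these data known. All 10 genes are named. Of the wider list, the 2 genes with the smallest p in each role are named, except 1 that is not reported here, and for Hes1 and Hey1 the 3 most similar profiles. Itch, Neurl1b, the promoters, the overlapping genes and the wider genes below the filter were named after their values were seen. The same holds for the markers Svs1, Svs2, Pate4, Egfl7, Emcn, Krt7, Krt8, Krt18, Clu and Cfd.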

Additional observations from a re-analysis of the deposited data

How the results depend on the processing

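Of 200 log2 fold changes of the 10 Notch genes under 20 alternatives, 186 kept their direction without passing the threshold. With the replicate number as a block (replicate block), which pairs replicates 1 and 2 and leaves control replicate 3 out of the contrast, 552 genes were called higher and 574 lower in place of 0 and 0, with 1 Notch gene lower (Jag2, -1.33, adjusted p = 0.0432 by edgeR) and, of the wider list, 1 higher and 1 lower. The labels do not say that a number marks a shared animal or day, and 2 pairs cannot show it. With GC offsets and the block the counts were 426 and 383 over all genes, 0 Notch genes, and 1 and 1 of the wider list. DESeq2 called 20 genes higher and 61 lower. Leaving out 1 library gave 0 to 15 genes higher and 0 to 33 lower, the highest without control replicate 3, and no Notch gene. No filter on low counts gave 2 higher. TPM tests, whose medians were shifted upwards, called 2234 higher and 60 lower with a pseudocount of 1 and 686 and 47 with 0.1, and 2 wider genes higher with each. Scaling by library size alone moved the median of all genes to 0.58.

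Values that changed sign, relative to the median where it shifted, were as follows. Dll4 was at -0.01 with effective lengths and with the block, at -0.38 and -0.09 on log2(TPM + 1) and log2(TPM + 0.1), and from -0.16 to 0.37 with 1 library left out. Hes1 was at 0.26 on log2(TPM + 1) and at 0.10 with GC offsets, with or without the block. Notch3 was at 0.10 with GC offsets and at 0.18 with the block added. Hey1 ran from -1.05 to 0.27 with 1 library left out. On log2(TPM + 1), Heyl was at -0.12 and Furin at 0.09. Against control replicate 3 alone, Nrarp was at 1.01 and Heyl at -0.31. The causes were not tested. Receptor shares moved by less than their SD with any 1 library left out, and the longer motif GTGGGAA was also found for 0 of the 8 genes.

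A fit that leaves out a Ghr deletion library has 1 sample in that group and assumes that it varies like the others. The adjusted p of Notch4 was lowest at 0.0663, with the block, over its alternatives.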
